A study of Mus musculus with 12 samples.

Results

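The genes described here are 45 interferon-stimulated effector genes of the mouse: sensors of foreign RNA and DNA, antiviral enzymes and GTPases, the ISG15 conjugation enzymes, membrane restriction factors, ADP-ribosyltransferases and related proteins that macrophages switch on in response to type I interferon. They were chosen by symbol, and 45 of 45 symbols matched a row among the 55401 genes measured. All 45 passed the filter on low values, with 547 normalized counts as the lowest level of any of them in any library.

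The RNA came from bone-marrow-derived macrophages (BMDMs) of Irx3-/- mice on the C57BL/6J strain, differentiated for 7 days with 20 nM M-CSF, the macrophage growth factor. The cells carried an adeno-associated virus (AAV) construct for IRX3_S389A, IRX3_S361A, IRX3_WT or GFP, with 3 libraries each and 12 in all. IRX3 belongs to the Iroquois homeobox proteins, which bind DNA and regulate transcription, and in S389A and S361A a serine is replaced by alanine at the residue in the name. Every group lacked the endogenous gene and every group received 100 ng/ml of lipopolysaccharide (LPS) for 4 h, so the comparisons are between constructs in stimulated cells. Neither unstimulated cells nor cells with an intact Irx3 gene were analysed here. The promoter that drives the constructs is not given in the sources used here, nor is it said whether the 3 libraries of a group came from separate animals or cultures. The p-values therefore measure the spread between these libraries, which may be technical.

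LPS binds Toll-like receptor 4, which signals through TBK1 and the transcription factor IRF3 to induce interferon beta. Interferon beta leaves the cell, binds its receptor, and activates receptor-bound kinases and a transcription factor complex that binds the interferon-stimulated response element (ISRE) in the promoters of effector genes. The gamma-activated site (GAS) is a different element found in interferon-responsive promoters. In macrophages this secondary wave supplies most of the cell's intrinsic antiviral proteins.

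Irx3 itself had no read in the GFP libraries. It had 194, 203 and 165 normalized counts in the IRX3_S389A libraries, 324, 364 and 358 in the IRX3_S361A libraries and 165, 170.3 and 196 in the IRX3_WT libraries. The IRX3_S361A libraries were above all others. Its difference between IRX3_S361A and IRX3_WT was 0.97 (SE 0.19, limma adjusted p = 0.000197) on the log2 scale, so the effects of the changed residue and of more Irx3 transcript cannot be told apart there. The same limit holds between IRX3_S389A and IRX3_S361A, where Irx3 differed by -0.90 (SE 0.19, limma adjusted p = 0.000867). Below, means are given ± SD over 3 libraries, and differences are on the log2 scale. Values are normalized counts, read counts divided by 1 size factor per library, and the libraries held 17149058 to 20108002 reads. In the GFP libraries the deposited totals were lower. Scaling all libraries to equal totals therefore moves the median of all genes against GFP to -0.174 (IRX3_S389A), -0.109 (IRX3_S361A) and -0.181 (IRX3_WT) on the log2 scale. Differences below are on the deposited scale, where these medians lie within 0.01 of 0. Under equal totals the sign changed for 19 of the members' differences. Against GFP these were Bst2 and Ifitm3 with IRX3_S389A, Ifitm3 with IRX3_S361A, and Oas1a, Oas3, Uba7, Ifi35 and Epsti1 with IRX3_WT. Against IRX3_WT they were Herc6 with IRX3_S389A, and Eif2ak2, Isg20, Isg15, Rtp4, Daxx, Irf1 and Tdrd7 with IRX3_S361A, and between IRX3_S389A and IRX3_S361A they were Oas1g, Oas2 and Ifi27. All 9 macrophage markers examined were detected. Their summed level was 394030 to 407640 normalized counts in IRX3_S389A, 417420 to 430710 in IRX3_S361A, 390090 to 394400 in IRX3_WT and 361390 to 371830 in GFP libraries. None of the 7 T and NK cell or 5 B cell markers passed the filter. Of 8 neutrophil markers 2 passed (Camp and S100a8) and Elane and Mpo were at 0 in all libraries. The neutrophil sum was 31.5 to 50.3 in IRX3_S389A, 27.3 to 49.7 in IRX3_S361A, 43.2 to 63.3 in IRX3_WT and 25.8 to 40.8 in GFP libraries, and S100a8 was higher than with GFP with IRX3_S389A (log2 difference 0.78) and IRX3_WT (1.12). S100a8 had only 11.6 to 34.5 normalized counts, and its difference of 0.64 between IRX3_S361A and GFP was not past the threshold. Of 6 stromal markers 2 passed, with sums of 36.6 to 51.7 in IRX3_S389A, 24.1 to 70.6 in IRX3_S361A, 22.8 to 26.2 in IRX3_WT and 17.5 to 25.1 in GFP libraries. Of these, Dcn, at 0 to 11.9 normalized counts, was higher with IRX3_S389A than with GFP by 2.16 (limma adjusted p = 0.0257). Pf4, a platelet and megakaryocyte gene that mouse macrophages also express, had 3407, 3546 and 3345 normalized counts in the IRX3_S389A libraries, 3495, 3690.4 and 3677 in the IRX3_S361A libraries and 4138, 4300 and 4093 in the IRX3_WT libraries, against 2540.1, 3041 and 2677 in the GFP libraries. It exceeded GFP by 0.32, 0.40 and 0.61 with IRX3_S389A, IRX3_S361A and IRX3_WT, and was lower than with IRX3_WT by 0.28 with IRX3_S389A and 0.21 with IRX3_S361A. The part of these levels in the results was not tested. In bulk RNA, fewer cells responding and less RNA per responding cell cannot be told apart.

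Together the 45 genes took 3.096, 3.179 and 3.002% of the library total with IRX3_S389A, 2.681, 2.597 and 2.496% with IRX3_S361A and 2.710, 2.647 and 2.526% with IRX3_WT, against 2.131, 2.162 and 2.083% with GFP. The IRX3_S389A libraries lay above all others and the GFP libraries below all others, while IRX3_S361A and IRX3_WT overlapped. Rsad2 alone made up 15.7 to 20.0% of the sum. By mean level, IRX3_S389A was the highest of the 4 groups for 42 genes, IRX3_WT for 2 (Herc6 and Ifi27) and GFP for 1 (Ifi27l2a). GFP was the lowest for 42 genes and IRX3_WT for the other 3 (Bst2, Ifitm3 and Ifi27l2a). From low to high, most genes followed the order GFP, IRX3_S361A, IRX3_WT, IRX3_S389A (25 genes) or GFP, IRX3_WT, IRX3_S361A, IRX3_S389A (15 genes). Of the 42 genes with GFP lowest, the 3 GFP values were separate from those of the next group for 38, the middle groups were separate from each other for 12, and the top group was separate from the third for 22. All 4 groups were separate from each other only for Oasl1 and Rsad2. For these steps the groups were first sorted by mean, and no share over all genes was computed. How unusual the counts are was not tested.

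**Figure D1:**
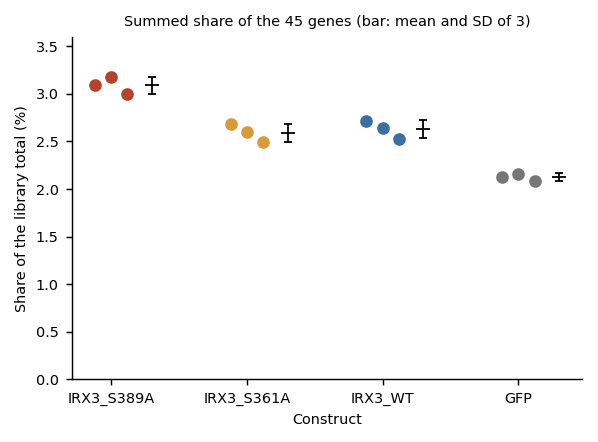
Summed share of the 45 genes in each library's total (%), by construct, as points, with the mean and SD of 3 libraries beside them. The IRX3_S389A libraries sit between 3.002 and 3.179% and the GFP libraries between 2.083 and 2.162%, with the other libraries in between.

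All 45 genes differed somewhere among the 4 groups (limma on log2(normalized count + 1), Benjamini-Hochberg adjusted p under 0.05), against 44.2% of the 13369 genes tested. Each of the 6 comparisons between constructs was then tested in the same fit. They share libraries and are not independent of each other. With IRX3_S389A 43 genes were higher and 1 was lower than with GFP, where 18.8% of all genes tested were higher and 16.2% lower, and the members' median log2 difference was 0.56. With IRX3_S361A 42 were higher and 1 was lower than with GFP (14.9% and 10.9% of all genes), with a median of 0.35. With IRX3_WT 38 were higher and 3 were lower than with GFP (21.0% and 18.6% of all genes), with a median of 0.38. With IRX3_S389A 33 were higher and 1 was lower than with IRX3_WT (8.21% and 7.08% of all genes), with a median of 0.21. With IRX3_S361A 7 were higher and 5 were lower than with IRX3_WT (6.43% and 9.07% of all genes), with a median of -0.047. With IRX3_S389A 29 were higher and 0 lower than with IRX3_S361A (7.00% and 3.16% of all genes), with a median of 0.21, and the difference was above 0 for all 45 on the deposited scale, though not for Oas1g, Oas2 and Ifi27 under equal totals. The single gene lower with IRX3_S389A than GFP was Ifi27l2a, and the single gene lower than with IRX3_WT was Ifi27. By library values alone, the IRX3_S389A libraries lay wholly above GFP for 42 genes and wholly below for 0 (23.6% and 22.8% of all genes), IRX3_S361A for 42 and 1 (21.2% and 18.4%), and IRX3_WT for 38 and 3 (24.7% and 23.7%). Against IRX3_WT, IRX3_S389A lay wholly above for 33 and below for 1 (14.8% and 14.3%), and IRX3_S361A for 8 and 8 (14.1% and 15.2%). IRX3_S389A lay wholly above IRX3_S361A for 29 and below for 0 (14.7% and 11.2%). Scaled to equal totals, 41 genes were higher with IRX3_S389A than with GFP (9.98% of all genes there), 35 with IRX3_S361A (7.83%) and 30 with IRX3_WT (10.4%). The rises over GFP no longer called there were those of Ifitm3 and Ifi27 with IRX3_S389A. With IRX3_S361A they were those of Oas1a, Oas3, Pnpt1, Ifi27, Rtp4, Ifi44 and Epsti1. With IRX3_WT they were those of Dhx58, Oas1g, Oas2, Pnpt1, Uba7, Rtp4, Parp12 and Tor3a.

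**Figure D2:**
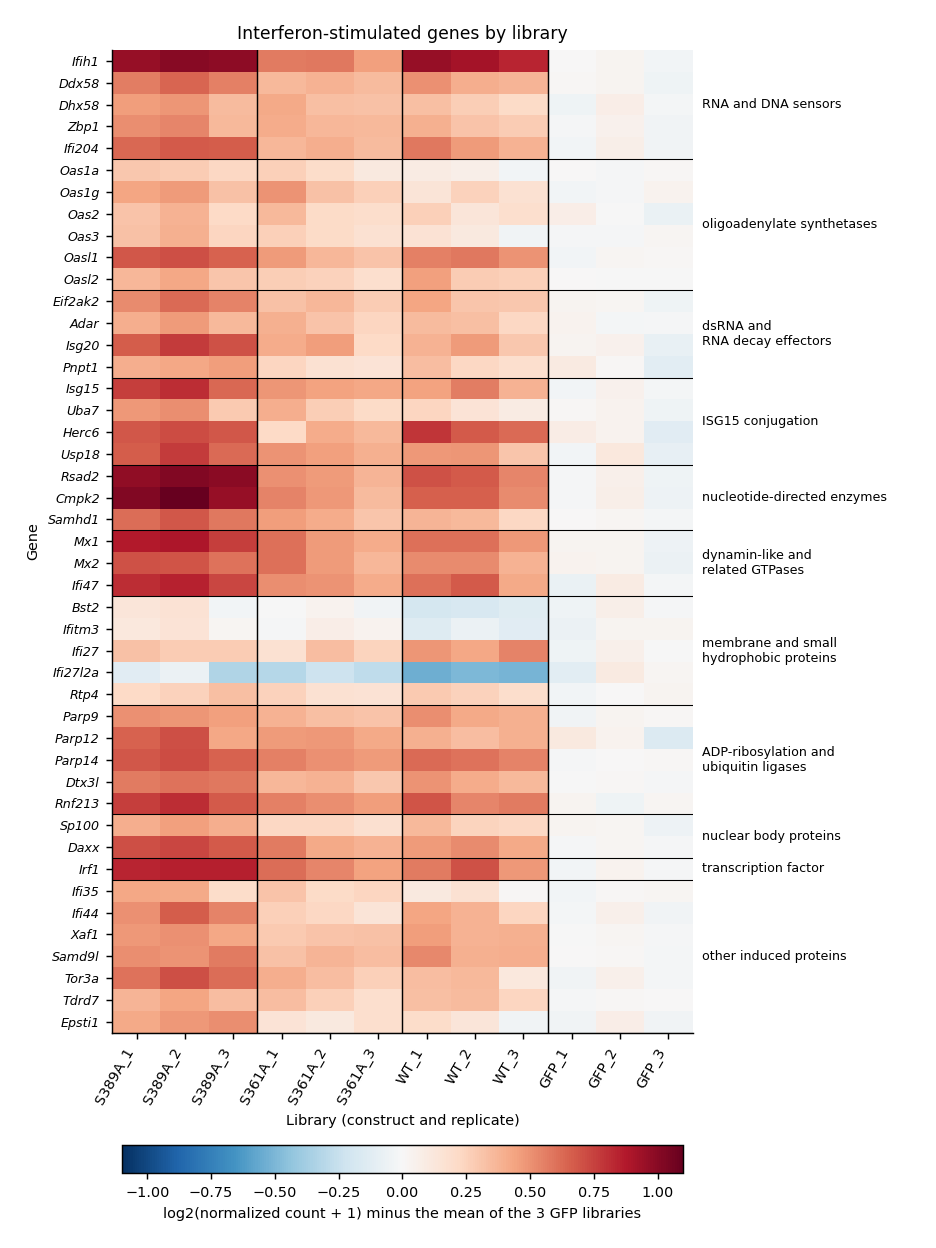
Each of the 45 genes (rows, grouped by role) in each of the 12 libraries (columns): log2(normalized count + 1) minus the mean of the 3 GFP libraries, from blue (lower) to red (higher). Red fills most of the IRX3 columns and is deepest for Cmpk2, Rsad2 and Ifih1 with IRX3_S389A, and Ifi27l2a is blue with each IRX3 construct.

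The nucleotide-directed enzymes included the most abundant transcript of the group per kilobase of exon, Rsad2. It encodes viperin, a radical enzyme that makes a chain-terminating nucleotide, Cmpk2 a mitochondrial nucleotide kinase, and Samhd1 a hydrolase that depletes the nucleotides used by reverse transcriptases. All 3 were higher with each IRX3 construct than with GFP and higher with IRX3_S389A than with IRX3_WT. Rsad2 (ENSMUSG00000020641.16, chromosome 12, 26442746 to 26456452, minus strand) had 116160, 119895 and 117630 normalized counts in the IRX3_S389A libraries, 83626, 81833 and 76442 in the IRX3_S361A libraries and 95899, 94518 and 85606 in the IRX3_WT libraries, against 58649.6, 61505 and 57144 in the GFP libraries. The 4 groups did not overlap, in the order GFP, IRX3_S361A, IRX3_WT, IRX3_S389A. Against GFP the log2 difference was 1.00 (SE 0.041, limma adjusted p = 2.74e-12) with IRX3_S389A, 0.45 with IRX3_S361A and 0.64 with IRX3_WT, and between IRX3_S389A and IRX3_WT it was 0.36 (SE 0.041, limma adjusted p = 1.09e-05). With IRX3_S361A it was lower than with IRX3_WT by 0.19 (SE 0.041, limma adjusted p = 0.00412). That call ended in 3 of 26 alternatives, among them correction for transcript GC content, and its adjusted p ranged from 1.8e-06 to 0.112 over them. By mean level per kilobase of exon over all libraries Rsad2 was the highest of the 45, at 20164 normalized counts per kilobase.

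Cmpk2 (ENSMUSG00000020638.8, chromosome 12, 26469204 to 26479837, plus strand) starts 12751 bases from the start of Rsad2 and is read in the opposite direction. It had 50812, 54393 and 48899 normalized counts in the IRX3_S389A libraries, 36639, 35003 and 32043 in the IRX3_S361A libraries and 39729.5, 39738 and 36080 in the IRX3_WT libraries, against 24975, 26345 and 24149 in the GFP libraries. IRX3_S389A was above every other library and GFP below every other library, with overlap between IRX3_S361A and IRX3_WT. Its log2 difference of 1.03 (SE 0.060, limma adjusted p = 1.06e-07) between IRX3_S389A and GFP was the largest of the 45 genes on the log2 scale, and the difference of 0.42 (SE 0.060, limma adjusted p = 0.000815) between IRX3_S389A and IRX3_WT was likewise the largest. Between IRX3_S361A and IRX3_WT it was -0.16 (SE 0.060, limma adjusted p = 0.118), not past the threshold here but past it with edgeR and DESeq2, though not with edgeR on 9 libraries. Samhd1 had 19053, 19942 and 18546 normalized counts in the IRX3_S389A libraries, 17124, 16548 and 15398 in the IRX3_S361A libraries and 16119, 15914 and 14588 in the IRX3_WT libraries, against 12456, 12621 and 12238 in the GFP libraries. Its IRX3_S389A values were above all others and exceeded IRX3_WT by 0.30 (SE 0.039, limma adjusted p = 5e-07), while IRX3_S361A and IRX3_WT overlapped.

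The 250 bases before the annotated starts of Rsad2 and Cmpk2 are shown because these neighbours had the largest differences between IRX3_S389A and IRX3_S361A (0.57 for Cmpk2 and 0.55 for Rsad2, log2). Both are from RefSeq on GRCm38.p6, written along the gene's own strand, Rsad2 at chr12:26456453-26456702, minus strand, and Cmpk2 at chr12:26468965-26469214, plus strand. Capitals mark a match to the core of the ISRE, GAAANNGAAA, here on the strand opposite to the gene.
Rsad2: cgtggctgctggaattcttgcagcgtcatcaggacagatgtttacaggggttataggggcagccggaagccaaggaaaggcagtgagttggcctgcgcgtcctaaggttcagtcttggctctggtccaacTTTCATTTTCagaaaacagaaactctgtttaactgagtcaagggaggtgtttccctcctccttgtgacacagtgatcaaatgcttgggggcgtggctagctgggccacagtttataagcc
Cmpk2: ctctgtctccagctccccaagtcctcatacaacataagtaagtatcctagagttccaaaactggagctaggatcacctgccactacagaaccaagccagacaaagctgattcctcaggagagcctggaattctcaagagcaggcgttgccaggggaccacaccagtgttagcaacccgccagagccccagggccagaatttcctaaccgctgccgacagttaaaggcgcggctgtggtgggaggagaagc
The core was found in the Rsad2 window and these letters were not in the Cmpk2 window.

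The 5 sensors were higher with each IRX3 construct than with GFP. Ifih1, the MDA5 sensor of long double-stranded RNA, had 21172, 21796 and 21564 normalized counts in the IRX3_S389A libraries, 16167, 16224 and 14903 in the IRX3_S361A libraries and 21182, 20533 and 19433 in the IRX3_WT libraries, against 10885, 11104 and 10657 in the GFP libraries. The IRX3_S389A and IRX3_WT libraries overlapped at the top, the IRX3_S361A libraries lay in between, and the GFP libraries were at the bottom. Its rise with IRX3_WT over GFP, 0.90 (SE 0.035, limma adjusted p = 3.06e-22) on the log2 scale, was the largest of the 45 genes in that comparison. With IRX3_S361A it was lower than with IRX3_WT by 0.37 (SE 0.035, limma adjusted p = 3.12e-10), the largest fall of the 45. Between IRX3_S389A and IRX3_WT the difference of 0.079 (SE 0.035, limma adjusted p = 0.137) was not past the threshold. The RIG-I gene Ddx58 averaged 9074 ± 282 with IRX3_S389A, 7757 ± 97.1 with IRX3_S361A, 8123 ± 405 with IRX3_WT and 6044 ± 170.0 with GFP, and its difference between IRX3_S389A and IRX3_WT was 0.16 on the log2 scale. Dhx58 (LGP2), Zbp1, a sensor of Z-form nucleic acid, and Ifi204, a DNA-binding protein of the p200 family, exceeded their IRX3_WT levels with IRX3_S389A too, by 0.16, 0.14 and 0.18 on the log2 scale. The call for Dhx58 ended without IRX3_S389A replicate 1 or 2 or IRX3_WT replicate 3 (adjusted p from 0.00323 to 0.153 over 26 alternatives). That for Zbp1, whose IRX3_S389A and IRX3_WT libraries overlapped, ended in 7 of 26 alternatives (adjusted p from 0.00182 to 0.262). Among them were correction for GC content, the fit of only the 2 groups, and the fits without IRX3_S389A replicate 1 or 2 or IRX3_WT replicate 2 or 3. Ifi204 has close relatives beside it in the genome, so its reads may be shared with them.

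The 6 oligoadenylate synthetase genes encode double-stranded RNA sensors whose product activates RNase L, and synthetase-like proteins. All 6 were higher with IRX3_S389A and with IRX3_S361A than with GFP, and 4 of 6 with IRX3_WT. Under equal totals the IRX3_WT calls of Oas1g (0.010, limma adjusted p = 0.876) and Oas2 (0.0175, limma adjusted p = 0.782) ended. So did the IRX3_S361A calls of Oas1a (0.076, limma adjusted p = 0.147) and Oas3 (0.10, limma adjusted p = 0.0554). Here the mutants differed from IRX3_WT in both directions. Oasl1 (ENSMUSG00000041827.15, chromosome 5, 114923240 to 114937915, plus strand), which in mice also limits the translation of IRF7, had 19966, 20209 and 19477 normalized counts in the IRX3_S389A libraries, 17184, 15987 and 15396 in the IRX3_S361A libraries and 18208, 18569 and 17455 in the IRX3_WT libraries, against 12137, 12548 and 12515 in the GFP libraries. All 4 groups were separate, with IRX3_S361A below IRX3_WT by 0.16 (SE 0.035, limma adjusted p = 0.00105) and IRX3_S389A above it by 0.14 (SE 0.035, limma adjusted p = 0.00526). Oas1g (ENSMUSG00000066861.14, chromosome 5, 120876142 to 120887613, minus strand) had 3171, 3250.1 and 2927 normalized counts in the IRX3_S389A libraries, 3305, 2932 and 2818 in the IRX3_S361A libraries and 2584, 2786 and 2639 in the IRX3_WT libraries, against 2299, 2328 and 2405 in the GFP libraries. The IRX3_S389A and IRX3_S361A libraries overlapped and were above all IRX3_WT libraries, which were above the GFP libraries. Its log2 difference from IRX3_WT was 0.22 (SE 0.050, limma adjusted p = 0.00159) with IRX3_S389A and 0.17 (SE 0.050, limma adjusted p = 0.0131) with IRX3_S361A. The IRX3_S361A call ended without IRX3_S361A replicate 1 or IRX3_WT replicate 1, and its adjusted p ranged from 0.000615 to 0.406 over 26 alternatives.

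Oas1a averaged 4846 ± 112 with IRX3_S389A, 4590.1 ± 251 with IRX3_S361A, 4138 ± 174 with IRX3_WT and 4020.0 ± 40.8 with GFP, and Oas3 averaged 8011 ± 423 with IRX3_S389A, 7469 ± 245 with IRX3_S361A, 6806 ± 472 with IRX3_WT and 6435 ± 90.9 with GFP. Both were higher with each mutant than with IRX3_WT, by 0.23 and 0.24 for IRX3_S389A and by 0.15 and 0.14 for IRX3_S361A on the log2 scale. With IRX3_WT neither passed the test against GFP (log2 differences 0.041 and 0.079, limma adjusted p = 0.469 and 0.148). Under equal totals both were lower with IRX3_WT than with GFP, at -0.14 and -0.098, and after GC correction both were higher, at 0.092 and 0.14. Between IRX3_S361A and IRX3_WT the Oas1a call ended without IRX3_S361A replicate 1 or IRX3_WT replicate 3 (adjusted p from 0.000174 to 0.0982 over 26 alternatives). The Oas3 call ended without IRX3_S361A replicate 1 or 2, without IRX3_WT replicate 3 and after correction for GC content (adjusted p from 0.000498 to 0.243). Oas2 and Oasl2 did not pass the test between either mutant and IRX3_WT, with log2 differences of 0.11 and 0.039 for IRX3_S389A and 0.061 and -0.094 for IRX3_S361A. Oas2, Oas3, Oas1g and Oas1a lie in a row on chromosome 5. Oas1a and Oas1g belong to a family of near-identical copies, and their reads may be divided between copies.

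The promoter window of Oas1g is shown as that of a gene higher with both mutants than with IRX3_WT. It covers 250 bases at chr5:120887614-120887863, minus strand (RefSeq, GRCm38.p6), written along the gene's strand, and the capitals mark a pair of overlapping ISRE cores.
Oas1g: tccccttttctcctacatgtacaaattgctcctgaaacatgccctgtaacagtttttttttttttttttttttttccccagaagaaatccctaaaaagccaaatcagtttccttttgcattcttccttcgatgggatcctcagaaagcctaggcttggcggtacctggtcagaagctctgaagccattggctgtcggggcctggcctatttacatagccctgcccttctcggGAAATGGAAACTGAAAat

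Of the effectors that act on double-stranded RNA or degrade RNA, all 4 were higher with each IRX3 construct than with GFP. Eif2ak2, the kinase PKR that stops translation on binding double-stranded RNA, had 7005, 7489.5 and 7136 normalized counts in the IRX3_S389A libraries, 6085, 6263 and 5909 in the IRX3_S361A libraries and 6603, 6025 and 6003 in the IRX3_WT libraries, against 4987, 4934 and 4709 in the GFP libraries. IRX3_S389A lay above every other library and GFP below, and the other groups overlapped. Its difference between IRX3_S389A and IRX3_WT was 0.22 (SE 0.040, limma adjusted p = 0.000139). The exonuclease gene Isg20 averaged 1007 ± 37.01 with IRX3_S389A, 792 ± 66.8 with IRX3_S361A, 801 ± 48.1 with IRX3_WT and 614 ± 29.04 with GFP, with a log2 difference of 0.33 between IRX3_S389A and IRX3_WT, and the mitochondrial RNA-degrading Pnpt1 a difference of 0.18. The call for Pnpt1 ended without IRX3_S389A replicate 3 or IRX3_WT replicate 3 (adjusted p from 8.98e-05 to 0.0939). Adar, the adenosine deaminase that edits double-stranded RNA, averaged 5745 ± 231 with IRX3_S389A, 5377 ± 292 with IRX3_S361A, 5329.9 ± 234 with IRX3_WT and 4325 ± 95.5 with GFP, and the difference of 0.11 (SE 0.042, limma adjusted p = 0.0767) between IRX3_S389A and IRX3_WT was not past the threshold. Another annotated gene covers 16.8% of the exon bases of Adar, and without a known strand setting reads there cannot be assigned to either gene. None of the 4 passed the test between IRX3_S361A and IRX3_WT.

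ISG15 is a ubiquitin-like protein that is activated by UBA7, attached to targets by HERC6 in the mouse, and removed by USP18. All 4 genes were higher with each IRX3 construct than with GFP. Isg15 (ENSMUSG00000035692.7, chromosome 4, 156199424 to 156200818, minus strand) had 11162, 11539.7 and 10155 normalized counts in the IRX3_S389A libraries, 9200.0, 8950.3 and 8831 in the IRX3_S361A libraries and 8933, 9688 and 8542 in the IRX3_WT libraries, against 6441, 6791 and 6482 in the GFP libraries. The IRX3_S389A libraries were highest, the IRX3_S361A and IRX3_WT libraries overlapped, and the GFP libraries were lowest. IRX3_S389A exceeded IRX3_WT by 0.27 (SE 0.043, limma adjusted p = 2.53e-05), and IRX3_S361A differed from it by -0.0080 (SE 0.043, limma adjusted p = 0.938). Usp18 and Uba7 were higher with IRX3_S389A than with IRX3_WT, by 0.26 and 0.26. The rise of Uba7 with IRX3_WT over GFP was 0.16 (SE 0.053, limma adjusted p = 0.0162), and it was lost without IRX3_WT replicate 1 or GFP replicate 3 and under equal totals, where it stood at -0.014 (adjusted p from 7.27e-06 to 0.842 over 26 alternatives).

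The ligase gene Herc6 (ENSMUSG00000029798.11, chromosome 6, 57581000 to 57664632, plus strand) followed another order. It had 2906, 2967 and 2892 normalized counts in the IRX3_S389A libraries, 2106, 2392 and 2306 in the IRX3_S361A libraries and 3116, 2884 and 2781 in the IRX3_WT libraries, against 1916, 1852 and 1659.8 in the GFP libraries. The IRX3_WT and IRX3_S389A libraries overlapped at the top, above the IRX3_S361A libraries, which were above GFP. The difference between IRX3_S389A and IRX3_WT was -0.00095 (SE 0.052, limma adjusted p = 0.994), and with IRX3_S361A it was lower than with IRX3_WT by 0.37 (SE 0.052, limma adjusted p = 2.24e-06). Another annotated gene covers 13.7% of its exon bases.

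The 3 GTPases were higher with each IRX3 construct than with GFP, and higher with IRX3_S389A than with either other IRX3 construct. Mx1 and Mx2 encode dynamin-like GTPases that trap viral nucleoproteins and that carry disabling mutations in the C57BL/6 strain, and Ifi47 a GTPase of the immunity-related family. Mx1 had 41269.7, 41742 and 38158 normalized counts in the IRX3_S389A libraries, 34274, 31193 and 29879.5 in the IRX3_S361A libraries and 34296, 34364 and 31468 in the IRX3_WT libraries, against 23035, 22984 and 21673 in the GFP libraries. The IRX3_S389A libraries were above all others and the GFP libraries below, with overlap between IRX3_S361A and IRX3_WT. IRX3_S389A exceeded IRX3_WT by 0.28 (SE 0.052, limma adjusted p = 0.00242). Ifi47 had 6397, 6550.4 and 6048 normalized counts in the IRX3_S389A libraries, 5186, 5119 and 4816 in the IRX3_S361A libraries and 5533, 5784 and 4837 in the IRX3_WT libraries, against 3462, 3877 and 3572 in the GFP libraries, with the same arrangement, and IRX3_S389A exceeded IRX3_WT by 0.24 (SE 0.056, limma adjusted p = 0.00535). Mx2 differed by 0.19 in that comparison, a call that ended without IRX3_S389A replicate 1 or 2 or IRX3_WT replicate 3 (adjusted p from 0.000121 to 0.0722 over 26 alternatives). Its difference of 0.19 between IRX3_S389A and IRX3_S361A was lost without IRX3_S389A replicate 1 or 2 or IRX3_S361A replicate 2 or 3 (adjusted p from 1.01e-05 to 0.803).

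The 5 membrane and small hydrophobic proteins included the 3 genes that were lower with IRX3_WT than with GFP. Bst2 encodes tetherin, which holds budding virions at the cell surface, and Ifitm3 a protein that blocks fusion of viruses with endosomes. Bst2 (ENSMUSG00000046718.8, chromosome 8, 71534255 to 71537456, minus strand) had 6659, 6786 and 5954 normalized counts in the IRX3_S389A libraries, 6062, 6239 and 5926 in the IRX3_S361A libraries and 5330.1, 5384 and 5539 in the IRX3_WT libraries, against 5876, 6369 and 6022 in the GFP libraries. The IRX3_WT libraries lay below every other library, and the other groups overlapped. Bst2 was lower with IRX3_WT than with GFP by 0.17 (SE 0.042, limma adjusted p = 0.0014), and higher than with IRX3_WT by 0.25 (SE 0.042, limma adjusted p = 3.06e-05) with IRX3_S389A and by 0.17 (SE 0.042, limma adjusted p = 0.0049) with IRX3_S361A. The IRX3_S361A call ended in 2 of 26 alternatives, neither of them the loss of 1 library (adjusted p from 0.000111 to 0.114). Neither mutant passed the test against GFP (log2 differences 0.085 and -0.0026), but with IRX3_S361A Bst2 was lower than with GFP under equal totals (-0.12), and with IRX3_S389A it was higher after GC correction (0.12). Bst2 is also a marker of plasmacytoid dendritic cells. The summed level of the 8 other dendritic cell markers examined was 2260.3 to 2374.0 normalized counts in IRX3_S389A, 1929.0 to 2035.6 in IRX3_S361A, 2163.0 to 2532.1 in IRX3_WT and 1617.1 to 1704.5 in GFP libraries. Most of this sum was Tcf4, which averaged 2101 in IRX3_S389A, 1776 in IRX3_S361A, 2086 in IRX3_WT and 1488 in GFP libraries. Tcf4 exceeded GFP by 0.50, 0.25 and 0.48 with IRX3_S389A, IRX3_S361A and IRX3_WT. Ccr9 was called higher than with GFP only with IRX3_WT, by 0.45, where Bst2 was lower. The part of such cells in the result was not tested.

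Its promoter window, 250 bases at chr8:71537473-71537722, minus strand (RefSeq, GRCm38.p6) along the gene's strand, is shown as that of a gene lower with IRX3_WT than with GFP. The capitals mark a pair of overlapping ISRE cores.
Bst2: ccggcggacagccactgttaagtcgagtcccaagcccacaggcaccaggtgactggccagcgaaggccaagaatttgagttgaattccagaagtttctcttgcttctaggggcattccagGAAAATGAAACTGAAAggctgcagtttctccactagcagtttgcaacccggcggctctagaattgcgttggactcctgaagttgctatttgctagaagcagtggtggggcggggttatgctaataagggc

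Ifitm3 (ENSMUSG00000025492.6, chromosome 7, 141009586 to 141010770, minus strand) had 11671, 11951 and 10904 normalized counts in the IRX3_S389A libraries, 10631, 11331 and 11059 in the IRX3_S361A libraries and 9758, 10261 and 9893 in the IRX3_WT libraries, against 10285, 11007 and 10993 in the GFP libraries. Its IRX3_WT libraries were below those of all other constructs, while IRX3_S389A, IRX3_S361A and GFP overlapped. The difference from IRX3_WT was 0.21 (SE 0.037, limma adjusted p = 9.87e-05) with IRX3_S389A and 0.14 (SE 0.037, limma adjusted p = 0.00624) with IRX3_S361A. The IRX3_S361A call ended without IRX3_S361A replicate 2 (limma adjusted p = 0.0504), with adjusted p from 7.03e-05 to 0.353 over 26 alternatives. The differences from GFP were smaller: -0.11 (SE 0.037, limma adjusted p = 0.0178) with IRX3_WT and 0.097 (SE 0.037, limma adjusted p = 0.0417) with IRX3_S389A. Without IRX3_WT replicate 1, GFP replicate 2 or GFP replicate 3 the IRX3_WT difference was not past the threshold (adjusted p from 3.87e-08 to 0.141). Without IRX3_S389A replicate 1 or 2, IRX3_S361A replicate 3 or GFP replicate 1 nor was the IRX3_S389A difference (adjusted p from 0.00167 to 0.38), which stood at -0.073 under equal totals. Ifitm3 has near-identical relatives, and its reads may be divided among them.

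Ifi27 and Ifi27l2a encode small hydrophobic proteins and lie 1927 bases apart on chromosome 12, converging. Ifi27l2a had 2559, 2663 and 2211 normalized counts in the IRX3_S389A libraries, 2237, 2372 and 2292 in the IRX3_S361A libraries and 1916, 1973 and 1954 in the IRX3_WT libraries, against 2569, 2979 and 2822 in the GFP libraries. The IRX3_WT libraries were the lowest and did not overlap any other group, and the IRX3_S389A libraries overlapped both the IRX3_S361A and the GFP libraries. It was lower than with GFP by 0.52 (SE 0.056, limma adjusted p = 6.84e-09) with IRX3_WT and 0.28 (SE 0.056, limma adjusted p = 0.000301) with IRX3_S361A, and both mutants exceeded IRX3_WT, by 0.34 (SE 0.056, limma adjusted p = 4.68e-05) and 0.24 (SE 0.056, limma adjusted p = 0.00275). With IRX3_S389A it was lower than with GFP by 0.17 (SE 0.056, limma adjusted p = 0.016), a call that ended without IRX3_S389A replicate 3, GFP replicate 2 or GFP replicate 3 (adjusted p from 9.33e-06 to 0.185 over 26 alternatives).

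Ifi27, at 547 to 827 normalized counts the least abundant of this class, had 707, 688 and 688 normalized counts in the IRX3_S389A libraries, 638, 718 and 671 in the IRX3_S361A libraries and 791, 759 and 827 in the IRX3_WT libraries, against 547, 589 and 563 in the GFP libraries. The IRX3_WT libraries were the highest and the GFP libraries the lowest, with the mutants overlapping in between. Against IRX3_WT the difference was -0.23 (SE 0.065, limma adjusted p = 0.0107) with IRX3_S361A and -0.19 (SE 0.065, limma adjusted p = 0.0412) with IRX3_S389A. The IRX3_S389A call ended in 10 of 26 alternatives, 5 of them the fits without IRX3_S389A replicate 1, 2 or 3 or IRX3_WT replicate 1 or 3 (adjusted p from 0.0127 to 0.169), and the IRX3_S361A call ended without IRX3_S361A replicate 1 or IRX3_WT replicate 3 (adjusted p from 0.00176 to 0.144). Rtp4, a receptor-transporting protein, averaged 4853 ± 193 with IRX3_S389A, 4609.9 ± 166 with IRX3_S361A, 4784 ± 154 with IRX3_WT and 4038 ± 86.3 with GFP and passed the test against GFP with each construct, but not between IRX3 constructs.

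**Figure D3:**
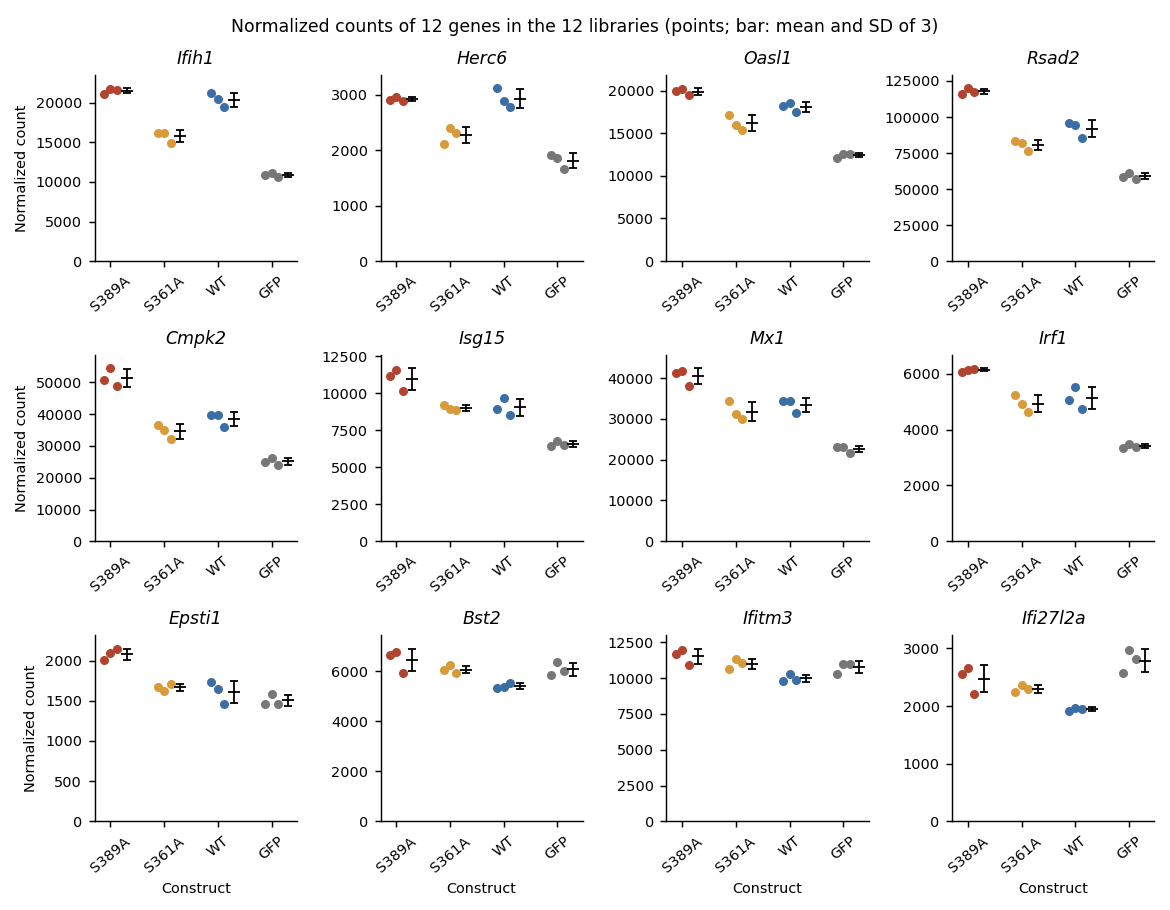
Normalized counts of 12 of the genes in the 12 libraries, 1 panel per gene, by construct (points), with the mean and SD of 3 libraries. The vertical axes start at 0 and differ between panels. Rsad2, Oasl1 and Cmpk2 are highest with IRX3_S389A, Ifih1 and Herc6 are lower with IRX3_S361A than with IRX3_WT, and Bst2, Ifitm3 and Ifi27l2a are lowest with IRX3_WT.

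The ADP-ribosyltransferases and ubiquitin ligases were all 5 higher with each IRX3 construct than with GFP. Parp14, which transfers single ADP-ribose units, had 40919.5, 41918 and 40084 normalized counts in the IRX3_S389A libraries, 37364, 36086 and 35299.5 in the IRX3_S361A libraries and 39369, 38537 and 37175 in the IRX3_WT libraries, against 25229, 25536 and 25769 in the GFP libraries. The IRX3_S389A libraries were the highest and the GFP libraries the lowest, with overlap between IRX3_S361A and IRX3_WT. The difference between IRX3_S389A and IRX3_WT was 0.095 (SE 0.030, limma adjusted p = 0.0237), a call that ended without IRX3_S389A replicate 1 or 2 or IRX3_WT replicate 3 (adjusted p from 0.00291 to 0.208 over 26 alternatives). Rnf213, a giant ubiquitin ligase, had 68611, 71336 and 64505 normalized counts in the IRX3_S389A libraries, 59599.8, 57759 and 55635 in the IRX3_S361A libraries and 65317, 58737 and 60198 in the IRX3_WT libraries, against 41322, 39229 and 41029.6 in the GFP libraries. Against GFP it differed by 0.75, 0.51 and 0.60 with IRX3_S389A, IRX3_S361A and IRX3_WT. The IRX3_S389A and IRX3_WT libraries overlapped, with a difference of 0.15 (SE 0.039, limma adjusted p = 0.0116) that was lost without IRX3_S389A replicate 2, IRX3_WT replicate 2 or IRX3_WT replicate 3 (adjusted p from 7.96e-05 to 0.163 over 26 alternatives).

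Dtx3l and Parp9 encode partners in a complex, share a divergent start and overlap over 8.0 and 9.4% of their exon bases. Dtx3l averaged 7495 ± 74.3 with IRX3_S389A, 6357 ± 202 with IRX3_S361A, 6693 ± 309 with IRX3_WT and 4995 ± 49.98 with GFP, and Parp9 averaged 6013 ± 97.2 with IRX3_S389A, 5466 ± 126 with IRX3_S361A, 5844 ± 264 with IRX3_WT and 4309 ± 101 with GFP. Between IRX3_S389A and IRX3_WT Dtx3l was higher by 0.16 (SE 0.037, limma adjusted p = 0.00173), while Parp9 differed by 0.042 (SE 0.038, limma adjusted p = 0.533). The difference between these 2 genes was not tested. Parp12, which also transfers ADP-ribose, differed by 0.22 (SE 0.074, limma adjusted p = 0.0699) in that comparison, and passed the threshold with edgeR and DESeq2 but not with edgeR on 9 libraries.

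The nuclear body genes Sp100 and Daxx were higher with each IRX3 construct than with GFP and with IRX3_S389A than with IRX3_WT. Daxx, a histone chaperone of these bodies, had 11394, 11577 and 11102 normalized counts in the IRX3_S389A libraries, 10347, 9297 and 9069.9 in the IRX3_S361A libraries and 9639, 9953 and 9308 in the IRX3_WT libraries, against 6906, 7047 and 6911 in the GFP libraries. IRX3_S389A was the highest group and GFP the lowest, and IRX3_S361A overlapped IRX3_WT. IRX3_S389A exceeded IRX3_WT by 0.24 (SE 0.039, limma adjusted p = 2.58e-05) for Daxx and by 0.14 for Sp100, where the call ended without IRX3_S389A replicate 2 or IRX3_WT replicate 3 (adjusted p from 0.000801 to 0.129 over 26 alternatives).

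Irf1, the transcription factor among the 45 genes, binds elements like the ISRE and can induce antiviral genes without interferon. It had 6085, 6158 and 6186 normalized counts in the IRX3_S389A libraries, 5227, 4937 and 4635 in the IRX3_S361A libraries and 5065, 5543 and 4756 in the IRX3_WT libraries, against 3344, 3505 and 3385 in the GFP libraries. The 3 IRX3_S389A libraries were close together and above all others, and the 3 GFP libraries were below all others. Irf1 exceeded GFP by 0.85 (SE 0.046, limma adjusted p = 4.22e-17) with IRX3_S389A, 0.53 with IRX3_S361A and 0.58 with IRX3_WT, and IRX3_S389A exceeded IRX3_WT by 0.27 (SE 0.046, limma adjusted p = 5.72e-05).

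Of the other 7 induced genes, 7 were higher with IRX3_S389A and 7 with IRX3_S361A than with GFP, and 5 with IRX3_WT. Tor3a, an ATPase of the endoplasmic reticulum, had 8515, 9171 and 8579 normalized counts in the IRX3_S389A libraries, 7410.4, 7123 and 6745 in the IRX3_S361A libraries and 7099, 7204 and 6100.2 in the IRX3_WT libraries, against 5466, 5847 and 5551 in the GFP libraries. The IRX3_S389A libraries lay above all others and exceeded IRX3_WT by 0.37 (SE 0.052, limma adjusted p = 3.67e-05). Epsti1, first described as a gene induced by stromal contact in epithelial cells, had 2009, 2088 and 2144 normalized counts in the IRX3_S389A libraries, 1668, 1623 and 1706 in the IRX3_S361A libraries and 1731, 1648 and 1464 in the IRX3_WT libraries, against 1465, 1587 and 1463 in the GFP libraries. Here too IRX3_S389A was above every other library, while IRX3_WT and GFP overlapped. Epsti1 was higher with IRX3_S389A than with IRX3_WT by 0.37 (SE 0.053, limma adjusted p = 2.72e-06) and differed between IRX3_WT and GFP by 0.099 (SE 0.053, limma adjusted p = 0.144). Its difference between IRX3_S361A and GFP, 0.15 (SE 0.053, limma adjusted p = 0.0373), passed the test but was not past the threshold in 11 of 26 alternatives, among them the fits without IRX3_S361A replicate 1, IRX3_S361A replicate 3, GFP replicate 1 or GFP replicate 3 (adjusted p from 0.0198 to 0.659).

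Samd9l, a translation-repressing antiviral protein, had 15159, 14982 and 15887 normalized counts in the IRX3_S389A libraries, 13334, 13850.3 and 13485 in the IRX3_S361A libraries and 15338, 13943 and 14084 in the IRX3_WT libraries, against 10693, 10767 and 10519 in the GFP libraries. Its GFP libraries were the lowest, the IRX3_S361A libraries came next without overlap, and IRX3_S389A overlapped IRX3_WT at the top. The differences from IRX3_WT were 0.087 (SE 0.035, limma adjusted p = 0.0944) for IRX3_S389A and -0.091 (SE 0.035, limma adjusted p = 0.0756) for IRX3_S361A. After GC correction the IRX3_S389A difference was 0.16 and passed the threshold (limma adjusted p = 4.54e-05), and the IRX3_S361A difference was 0.020. Ifi35 averaged 1974 ± 168 with IRX3_S389A, 1843 ± 68.5 with IRX3_S361A, 1653 ± 87.6 with IRX3_WT and 1548 ± 25.5 with GFP and was higher than with IRX3_WT with both mutants, by 0.25 and 0.16 on the log2 scale. The IRX3_S361A call for Ifi35 ended in 11 of 26 alternatives, among them the fits without IRX3_S361A replicate 1 or 3 or IRX3_WT replicate 1 or 3 (adjusted p from 0.00255 to 0.229). Another annotated gene covers 16.8% of its exon bases. Ifi44 was higher with IRX3_S389A than with IRX3_WT by 0.22, while Xaf1, which promotes apoptosis, and Tdrd7, a tudor protein that inhibits autophagy, did not pass (0.057 and 0.077).

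**Figure D4:**
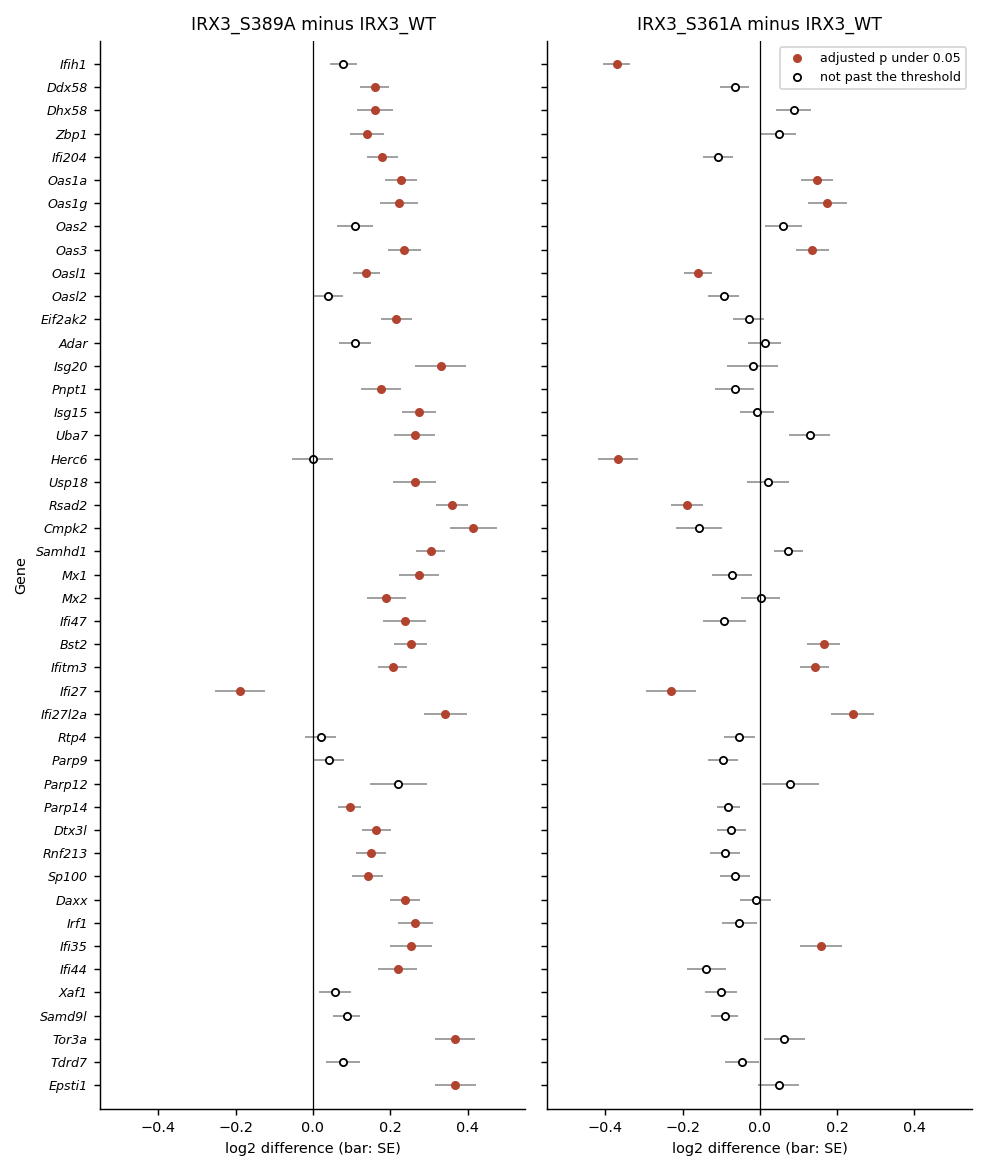
Log2 difference of each of the 45 genes between IRX3_S389A and IRX3_WT (left) and between IRX3_S361A and IRX3_WT (right), with the SE as bars and filled points where the limma adjusted p was under 0.05. On the left 33 genes are called higher and 1 lower, and on the right 7 higher and 5 lower.

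By their calls against IRX3_WT the genes fell into sets, described here without a test because they were formed from the values. The share of all genes with each pattern was not computed. In 24 genes only IRX3_S389A was called, and higher. In 7 genes both mutants were higher than IRX3_WT: Oas1a, Oas1g, Oas3, Ifi35, Bst2, Ifitm3 and Ifi27l2a. Of these, 3 (Bst2, Ifitm3 and Ifi27l2a) were the genes that were lower with IRX3_WT than with GFP, and for Oas1a, Oas3 and Ifi35 the difference between IRX3_WT and GFP did not pass the test. The same IRX3_WT libraries enter both comparisons, so a low IRX3_WT level is partly built into this set. In 5 genes IRX3_S361A was lower than IRX3_WT: Ifih1, Herc6, Oasl1, Rsad2 and Ifi27, and of these Oasl1 and Rsad2 were higher and Ifi27 lower with IRX3_S389A than with IRX3_WT. In the last 9 neither mutant was called. Transcript GC content was 51.6 to 55.3% in the 7 genes, with a median of 52.9%, against a median of 49.1% in the other 38. After correction for GC content, 5 genes in place of 7 were higher and 5 were lower with IRX3_S361A than with IRX3_WT, and the calls of Oas3, Ifi35 and Rsad2 were lost. The number higher in that comparison was 3 without IRX3_S361A replicate 1 and 4 without IRX3_WT replicate 3, and the number lower was 10 without IRX3_WT replicate 3.

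Upstream of these genes, 27 of 28 genes of interferon induction and signalling were tested, and Ifna4 was at 0 in all libraries. Higher than with GFP were 19 with IRX3_S389A, 17 with IRX3_S361A and 18 with IRX3_WT (18.8%, 14.9% and 21.0% of all genes). Lower were 2, 3 and 3 (16.2%, 10.9% and 18.6%). Against IRX3_WT 7 were higher and 4 lower with IRX3_S389A (8.21% and 7.08%), and 1 was higher and 5 lower with IRX3_S361A (6.43% and 9.07%). Between IRX3_S389A and IRX3_S361A 12 were higher and 1 was lower (7.00% and 3.16%). Under equal totals the numbers lower than with GFP were 6, 5 and 7. Of all 13369 genes tested, 6731, 4273 and 6914 were called there, and only 1334, 1047 and 1395 of these were higher. With correction for GC content 12 genes in place of 5 were lower with IRX3_S361A than with IRX3_WT, where 1836 of all genes were called in either direction. Ifnb1, the gene of interferon beta, had 58.9, 42.3 and 48.8 normalized counts in the IRX3_S389A libraries, 34.4, 34.8 and 27.1 in the IRX3_S361A libraries and 20.7, 33.2 and 18.2 in the IRX3_WT libraries, against 21.3, 24.9 and 33.8 in the GFP libraries. These are low counts, and the IRX3_S389A libraries were above all others. Between IRX3_S389A and IRX3_S361A, however, the Ifnb1 difference of 0.62 (SE 0.27, limma adjusted p = 0.154) was not past the threshold. Ifnb1 was higher with IRX3_S389A than with IRX3_WT by 1.06 (SE 0.27, limma adjusted p = 0.00494) and than with GFP by 0.89 (SE 0.27, limma adjusted p = 0.00819), while no difference between IRX3_S361A, IRX3_WT and GFP passed the threshold (log2 values 0.44, 0.27 and -0.17 for IRX3_S361A against IRX3_WT, IRX3_S361A against GFP and IRX3_WT against GFP). The difference from GFP was not past the threshold without IRX3_S389A replicate 1 or GFP replicate 1 (adjusted p from 0.00376 to 0.054 over 25 alternatives).

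Among the signalling genes with the smallest p in these comparisons, the kinase gene Jak2, which serves the receptors of interferon gamma and of many cytokines, had 10127, 9943 and 10177 normalized counts in the IRX3_S389A libraries, 8442, 8841 and 8446 in the IRX3_S361A libraries and 12776, 11978 and 12247 in the IRX3_WT libraries, against 6409, 6583 and 6264 in the GFP libraries. All 4 groups were separate, with IRX3_WT at the top. Jak2 was lower than with IRX3_WT by 0.29 (SE 0.035, limma adjusted p = 9.98e-08) with IRX3_S389A and by 0.52 (SE 0.035, limma adjusted p = 3.21e-14) with IRX3_S361A. Irf7, which amplifies interferon transcription, averaged 11738 ± 796 with IRX3_S389A, 10246 ± 453 with IRX3_S361A, 9224 ± 347 with IRX3_WT and 8833 ± 109 with GFP and was higher with IRX3_S389A than with IRX3_WT by 0.35 (SE 0.041, limma adjusted p = 1.08e-07). It was also the 1 signalling gene higher with IRX3_S361A than with IRX3_WT, by 0.15 (SE 0.041, limma adjusted p = 0.00827), a call that ended without IRX3_S361A replicate 1 or IRX3_WT replicate 3 and after GC correction (adjusted p from 0.000131 to 0.0849 over 26 alternatives). With IRX3_WT against GFP its difference of 0.062 turned to -0.11 under equal totals. Stat2 was higher with IRX3_S389A than with IRX3_WT by 0.19 (SE 0.039, limma adjusted p = 0.000569). The feedback inhibitor gene Socs3 averaged 9734 ± 449 with IRX3_S389A, 10401 ± 346 with IRX3_S361A, 10737 ± 615 with IRX3_WT and 5734 ± 67.3 with GFP, and Socs1 averaged 1741 ± 93.3 with IRX3_S389A, 1375 ± 102 with IRX3_S361A, 1531 ± 47.3 with IRX3_WT and 914 ± 62.9 with GFP. Both exceeded GFP with each IRX3 construct, by 0.76, 0.86 and 0.90 for Socs3 and 0.93, 0.59 and 0.74 for Socs1 in the order IRX3_S389A, IRX3_S361A, IRX3_WT. With IRX3_S361A, Tbk1, the kinase upstream of IRF3, was lower than with IRX3_WT by 0.23 (SE 0.039, limma adjusted p = 3.38e-05) and Trim30a by 0.19 (SE 0.040, limma adjusted p = 0.00076).

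RefSeq promoter windows (250 bases before to 50 after the start, GRCm38.p6) were at hand for 32 of the 45 genes. Each was searched on both strands for the ISRE core GAAANNGAAA, the GAS TTCNNNGAA and the site ACANNTGT known for a Drosophila Iroquois protein. An ISRE core was in a window of 11 of the 32 genes (34.4%), against 3.99% of all 27025 genes with a window. A GAS was in 9 (28.1%, against 9.55%) and the Iroquois site in 4 (12.5%, against 8.39%). An ISRE core and a GAS overlapped in 2 windows. Genes with a core were Ifih1, Ddx58, Oas1a, Oas1g, Oas3, Eif2ak2, Isg15, Rsad2, Bst2, Ifitm3 and Tdrd7. Of the 6 genes with a window in the set higher with both mutants than with IRX3_WT, 5 held a core, against 6 of the 26 other genes with a window, a count made after the set was formed from the values. The Iroquois site was in windows of Oasl1, Uba7, Rsad2 and Tdrd7, and Cmpk2, with the largest difference between IRX3_S389A and IRX3_WT, had a match to none of the motifs. A match is a run of letters and no measure of binding.

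**Figure D5:**
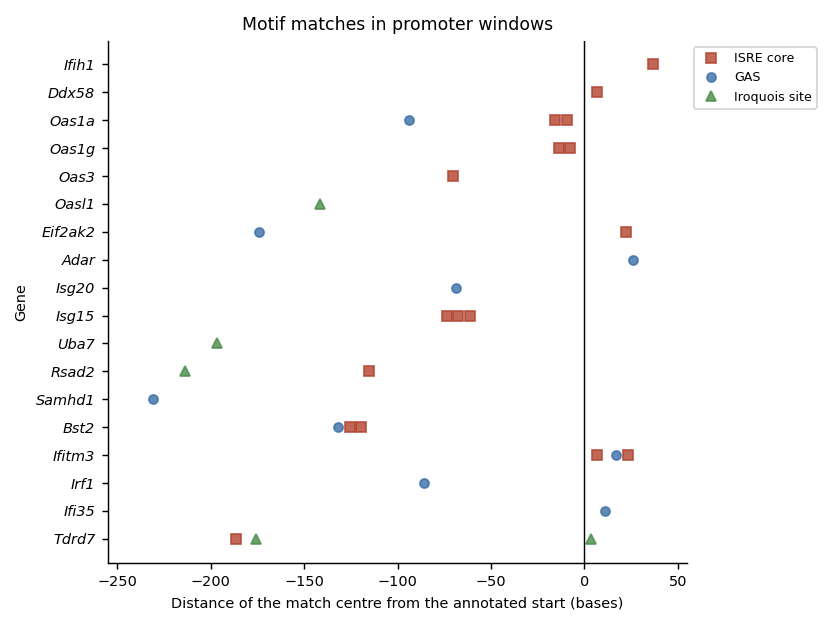
Centres of motif matches in the promoter windows of the 18 genes with any match (rows), by distance in bases from the annotated start (vertical line), with squares for the ISRE core, circles for the GAS and triangles for the Iroquois site. Of the ISRE cores, that of Tdrd7 lies farthest upstream of the start and that of Ifih1 farthest downstream.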

How the data were processed

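RNA sequencing was analysed for 12 libraries, 3 for each of 4 constructs. Per the submitters' processing notes, reads were handled with Trimmomatic, HISAT2 2.1.0 and StringTie 1.3.5 on mm10. For the counting tool, strand setting and annotation release, the sources used here give nothing. The deposited values are a signal, read counts that were divided by 1 size factor per library before deposit. All of them (100%) came out as whole reads within a tolerance of 1e-06, with 1 read worth 0.890 to 1.14 units. In 3 libraries 1 read was within 1% of 1 unit, where recovered and deposited values hardly differ, so edgeR was also run on the other 9. A count of 3 reads corresponds to 2.67 to 3.41 units. Such limits cover counting error only.

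Since these are not raw counts, limma 3.58.1 in R 4.3.3 (trend and robust variance) was fitted to log2(value + 1) for the 13369 genes with at least 10 units in at least 3 libraries. All 12 libraries entered 1 fit, which left 8 residual degrees of freedom. Adjustment over all genes tested followed Benjamini and Hochberg, and genes under 0.05 were called. A fold change on this scale understates the change of low genes. The p-values in the text are two-sided. Members were recomputed under 26 alternative settings, and Ifnb1 under 25 (edgeR 4.0.16 and DESeq2 1.42.0 on the recovered reads, other scalings, filters and pseudocounts, GC correction, a replicate block, each library left out), of which 2 were chosen after seeing the data. Gene positions and exons are from GENCODE M21 (GRCm38, which is mm10), where 99.5% of gene IDs matched without their version, and promoters from RefSeq.

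Values in every library are given for the up to 3 largest called rises and falls in each comparison whose groups do not overlap, the 5 genes highest per kilobase, and the gene with the smallest p of each role, and for Irx3 and Ifnb1. Up to 3 signalling genes with the smallest p in each comparison are also named. The 45 genes, their roles and the signalling and marker lists were chosen with earlier results of these data known. The erythroid and megakaryocytic marker list is not reported here as a sum.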

Additional observations from a re-analysis of the deposited data

How the results depend on the processing

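Of 3240 values of single members under alternatives that kept all libraries, 3112 kept direction and side of the threshold, 49 lost the call and 44 gained one. The sign changed for 35 (19 under equal totals, 8 under GC correction and 8 under GC correction with the replicate block), of which 4 were past the threshold under one of the settings compared and 31 under neither. Scaling to equal totals gave medians of 0.39 (IRX3_S389A), 0.23 (IRX3_S361A) and 0.20 (IRX3_WT) against GFP and 0.016 for IRX3_S361A against IRX3_WT. Lower than with GFP were then 2 genes with IRX3_S361A and 5 with IRX3_WT. Of all 13369 genes tested, 4273 and 6914 were called in these comparisons, and only 1047 and 1395 of them were higher. Among values past the threshold in either scaling, signs changed there for Uba7 (-0.014), Oas1a (-0.14), Oas3 (-0.098), Ifngr1 (-0.027), Ifngr2 (-0.061), Irf5 (-0.18) and Irf7 (-0.11) with IRX3_WT against GFP, and for Ifitm3 (-0.073) and Ifngr2 (-0.11) with IRX3_S389A against GFP. The number lower with IRX3_S389A than with IRX3_WT was 0 with no filter, equal totals, only the 2 groups fitted, edgeR on 9 libraries, and without IRX3_WT replicate 1 and IRX3_S361A replicate 1 together. With only the 2 groups fitted the number lower with IRX3_S389A than with GFP was also 0. Without those 2 libraries 3 were higher with IRX3_S361A than with IRX3_WT. The fit with edgeR on 9 libraries, with a single IRX3_S361A library assumed to vary like the other groups, gave 3 higher, 3 lower and a median of 0.021 for IRX3_S361A against IRX3_WT, and 7 higher with a median of 0.14 for IRX3_S389A against IRX3_S361A. The cause of these differences was not tested.

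No pairing by replicate number was seen in the values: 0 of 18 same-numbered pairs had correlated deviations over 0.1 (r from -0.041 to 0.030), and 12 of 36 correlated best with their own number. Such correlations cannot tell whether same-numbered libraries shared an animal, a day or a culture. With the replicate block 8 genes were higher and 7 lower with IRX3_S361A than with IRX3_WT, 34 higher with IRX3_S389A than with IRX3_WT and 30 than with IRX3_S361A. With the block and GC correction together 8 were lower with IRX3_S361A than with IRX3_WT.

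Leaving out 1 library at a time, the numbers higher than with GFP were 42 to 44 (IRX3_S389A), 40 to 42 (IRX3_S361A) and 37 to 40 (IRX3_WT), and the numbers lower 0 to 1, 1 throughout and 2 to 3. Those higher than with IRX3_WT were 26 to 35 (IRX3_S389A) and 3 to 8 (IRX3_S361A), and those lower 0 to 1 and 5 to 10. Between IRX3_S389A and IRX3_S361A 25 to 36 were higher. Medians ranged over 0.52 to 0.57, 0.33 to 0.37 and 0.33 to 0.41 against GFP in the same order, 0.16 to 0.22 and -0.079 to -0.0089 against IRX3_WT, and 0.19 to 0.23 between the mutants. The IRX3_S389A count lower than IRX3_WT was 0 without IRX3_S389A replicate 1, 2 or 3 or IRX3_WT replicate 1 or 3, and lower than GFP 0 without IRX3_S389A replicate 3 or GFP replicate 2 or 3.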
